A study of Mus musculus with 24 samples.

Results

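The 41 genes described here encode the machinery of DNA replication and of entry into S phase. They were taken by gene symbol from count tables that list 24456 genes. The rule that names them uses no measured value, but the set was proposed with earlier results of these data known. They comprise subunits of the origin recognition complex (Orc1, Orc2, Orc6), helicase loaders and their inhibitor (Cdc6, Cdt1, Gmnn), the MCM2-7 helicase, factors that activate the helicase (Mcm10, Cdc45, Gins1 to Gins4, Cdc7, Dbf4), polymerase and primase subunits (Pola1, Prim1, Pold1, Pole), the sliding clamp and its loader (Pcna, Rfc1 to Rfc5), lagging strand enzymes (Fen1, Lig1), nucleotide supply (Rrm1, Rrm2, Tk1, Tyms), maintenance of DNA methylation (Uhrf1, Dnmt1) and G1/S control (E2f1, Ccne1, Ccne2). All 41 passed the filter on low counts that kept 17170 genes of the tables, and no member had fewer than 48 counts in any library.

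RNA was sequenced from testes of wild-type (WT) male pups and of pups homozygous for an Atad2 knockout (KO), collected 20, 22, 24 or 26 days after birth. Per genotype, 4 libraries were made for day 20, another 4 for day 22, and 2 for day 24 as well as for day 26. ATAD2 is a bromodomain AAA+ ATPase of chromatin, and the KO allele is a lacZ gene trap from which a Cre driven by the ubiquitous CMV promoter has removed the neo cassette and an exon. The deletion is therefore not limited to germ cells, and the 5′ exons of Atad2 are still transcribed as a fusion with β-galactosidase. The labels number replicates but do not say that each came from a different animal, so p-values measure the spread between these libraries.

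Each library held 10709667 to 19491935 counts assigned to genes, and the counts of a member ranged from 48 to 4718 per library. Levels are given as CPM, counts scaled to the normalised size of each library. Atad2 was at 92.7, 171, 76.4 and 94.0 CPM in the WT libraries of day 20 and at 30.8, 37.1, 36.0 and 32.2 CPM in the KO libraries. KO libraries lay below all WT libraries at each day, and the mean difference over the 4 days was -1.37 ± 0.11 on the log2 scale (SE, edgeR quasi-likelihood test, adjusted p = 1.23e-07). WT day 20 replicate 2 stood apart, with 13.7% of its reads at more than 1 genomic site and 3.26% of its assigned counts in mitochondrial ribosomal RNA. Of the 4 WT day 20 libraries it was the highest for 22 members and the lowest for 11, so several results that use day 20 are also given without it. Markers of Sertoli cells, spermatogonia, meiotic cells and spermatids were detected, and no listed marker found in the tables was at 0 in every library of a group.

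Replication starts when the origin recognition complex, with CDC6 and CDT1, loads MCM2-7 rings onto DNA in G1. Kinases then convert the rings into active helicases with CDC45 and GINS, after which polymerase α with primase starts new strands and polymerases δ and ε, held by the clamp PCNA, extend them. Many of these genes are transcribed by E2F factors at the G1/S transition. In the testis, replication takes place in dividing spermatogonia and, for a last time, in preleptotene spermatocytes before meiosis. Spermatocytes and spermatids that accumulate as the first wave advances no longer replicate their genomes.

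Because many members are known E2F targets, the sequences around their start sites were read first. RefSeq windows (GRCm38.p6, from 250 bases before to 50 after a start site) were at hand for 33 of the 41 members. Ccne2, Gins1, Gins2, Gins4, Gmnn, Mcm4, Pole and Rfc2 were not matched. The letters searched on both strands were TTTCCCGC, TTTGGCGC, TTTCGCGC, TTTGCCGC and TTTCCCGG, which can overlap each other. At least 1 of these was found in 14 of 33 members (42.4%), against 1078 of all 27025 genes with a window (3.99%) and 795 of the 12861 such genes that were tested (6.18%). The 14 were Cdc6, Cdt1, Dnmt1, Gins3, Lig1, Mcm3, Mcm5, Mcm6, Mcm7, Orc1, Pola1, Pold1, Rfc3 and Uhrf1. The letters TTTGAA or TTCGAA, of the CHR element of late cell cycle genes, were in 9 of 33 members (27.3%). They were in 5854 of the 27025 genes (21.7%) and in 2191 of the 12861 tested genes (17.0%). The upstream bases of the members were also richer in G and C, with a median of 58.8%, beside 52.4% for all genes, and the part of this in the shares of matches was not tested. A match is a description of the letters and not of binding.

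The 250 bases before the start sites of Mcm6 and Pola1 are shown because Mcm6 was called lower in KO, and Pola1 was called lower with age in both genotypes. Each is written on the strand of its gene, 5′ to 3′, with E2F-type letters in capitals. Mcm6 lies on the minus strand at chr1:128359706-128359955, and its window holds the letters in 2 stretches, 1 of them made of 2 overlapping matches. Pola1 lies on the minus strand at chrX:93632156-93632405, with 1 match on the strand opposite to the gene.
Mcm6: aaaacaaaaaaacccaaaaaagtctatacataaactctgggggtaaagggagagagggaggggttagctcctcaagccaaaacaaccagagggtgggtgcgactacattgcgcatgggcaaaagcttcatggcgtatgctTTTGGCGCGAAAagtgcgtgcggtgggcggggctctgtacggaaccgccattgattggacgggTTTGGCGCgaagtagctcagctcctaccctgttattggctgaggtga
Pola1: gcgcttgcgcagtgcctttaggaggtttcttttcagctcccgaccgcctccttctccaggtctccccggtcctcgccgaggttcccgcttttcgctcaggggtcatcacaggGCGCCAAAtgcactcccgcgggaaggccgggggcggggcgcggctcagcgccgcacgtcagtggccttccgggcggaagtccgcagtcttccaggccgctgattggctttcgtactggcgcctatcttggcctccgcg

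Shorter stretches, 1 match per gene with 10 bases on either side, are shown for helicase and origin genes whose values are given below. Capitals mark that match alone, although Mcm3, Mcm5 and Mcm7 each hold 2, and in Mcm5 the other overlaps it on the opposite strand. Mcm5 is at chr8:75109346-75109373 on the plus strand, 153 bases before its start site. Mcm7 is at chr5:138172031-138172058 on the minus strand, 165 bases before a start site that lies within a longer annotated gene. Orc1 is at chr4:108579417-108579444 on the plus strand, 27 bases before its start site. Cdt1 is at chr8:122568037-122568064 on the plus strand, where the match follows the start site, and Mcm3 is at chr1:20820276-20820303 on the minus strand, also after the start site.
Mcm5: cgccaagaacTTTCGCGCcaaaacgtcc
Mcm7: atttcgaaccGCGGGAAAcagggtgtcc
Orc1: tcggttagtgGCGCGAAAagttttctcc
Cdt1: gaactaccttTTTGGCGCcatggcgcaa
Mcm3: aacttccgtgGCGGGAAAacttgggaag

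Members were present over a wide range of levels. Per kilobase of summed exon length, averaged over the 8 groups, Pcna was highest at 60.9 CPM per kilobase, followed by Ccne2 at 42.8, Mcm7 at 36.4, Gins4 at 36.0, Rfc4 at 32.8, Rfc1 at 32.7 and Uhrf1 at 31.7. Tyms, at 1.36, and Tk1, at 0.961 CPM per kilobase, were the lowest. Transcripts of genes for subunits of the same complex were not at equal levels. Mcm7 stood at 36.4 CPM per kilobase, while the other MCM2-7 genes ranged from 4.94 for Mcm2 to 11.6 for Mcm6. Among the clamp loader genes, Rfc4 and Rfc1 were at 32.8 and 32.7 CPM per kilobase and Rfc5 at 1.95. Among the GINS genes, Gins4 was at 36.0 CPM per kilobase, Gins1 at 17.5, Gins2 at 3.33 and Gins3 at 2.95. Of the 10 highest members, 9 remained among the 10 highest when the length of the longest coding transcript was used instead, a choice made after seeing the data, and Rrm1 then moved from the 9th to the 3rd place and Mcm7 from the 3rd to the 2nd. Dbf4 moved from the 18th to the 8th place. By that length Mcm2 was at 10.2 CPM per kilobase. The MCM2-7 genes other than Mcm7 then ranged from 9.13 for Mcm4 to 13.4 for Mcm5.

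**Figure D1:**
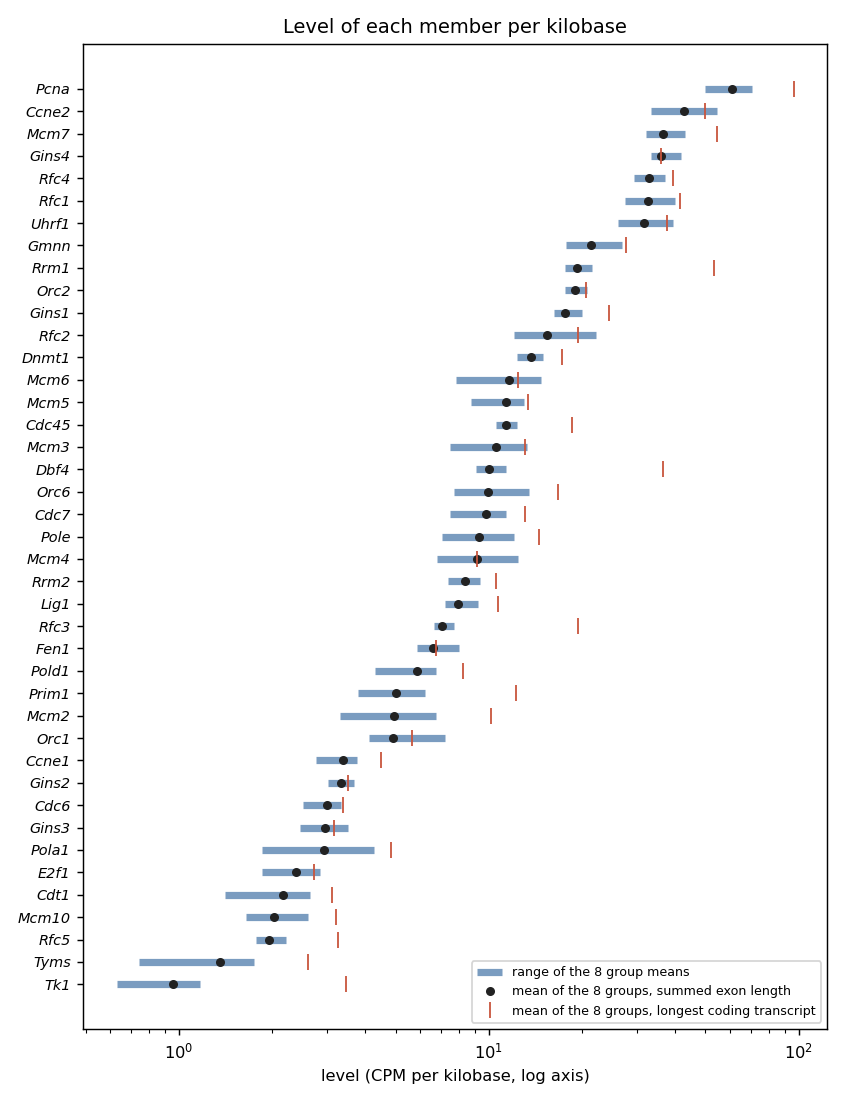
Level of each of the 41 members in CPM per kilobase on a log axis. Points are means of the 8 groups by summed exon length, bars span the lowest and highest group mean, and ticks give the same mean by the longest coding transcript; Pcna is highest at 60.9 and Tk1 lowest at 0.961 CPM per kilobase by summed exon length.

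The main question was whether these genes differed between KO and WT testes. Of the 41 members, 2 differed in the mean of the 4 days, Mcm6 lower and Mcm7 higher in KO, and both encode subunits of the same helicase ring. DESeq2 also called 2 (1784 genes in all), and 8 had an unadjusted p under 0.05 (19.5%, beside 23.2% of all genes). Of all tested genes 7.08% were called in that comparison, so the count of members called does not exceed the background. Both called differences were under 0.25 on the log2 scale. The median difference of the members was -0.01, beside 0.01 for all genes tested. In bulk tissue, fewer cells of a type and less RNA per cell cannot be told apart.

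Mcm6 was at 68.5, 81.2, 63.4 and 62.6 CPM in WT and at 55.8, 56.8, 63.5 and 58.9 CPM in KO at day 20. At day 22 it was at 59.9, 57.0, 59.2 and 54.0 CPM in WT and at 61.9, 48.8, 56.5 and 60.5 CPM in KO. At day 24 it was at 61.2 and 50.8 CPM in WT and 49.1 and 45.8 CPM in KO, and at day 26 at 48.2 and 53.4 against 39.2 and 33.7 CPM. Both KO libraries were below both WT libraries at days 24 and 26, and the groups overlapped at days 20 and 22. The mean difference over the days was -0.24 ± 0.06 on the log2 scale (SE, 95% interval -0.37 to -0.11, edgeR quasi-likelihood test, adjusted p = 0.0293). Without WT day 20 replicate 2 it was -0.21 with an adjusted p of 0.0286.

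Mcm7 was at 169, 135, 115 and 156 CPM in WT and at 181, 166, 185 and 169 CPM in KO at day 20. At day 22 it was at 164, 163, 156 and 138 CPM in WT and at 179, 180, 172 and 179 CPM in KO. At day 24 it was at 160 and 147 against 153 and 147 CPM, and at day 26 at 137 and 148 against 193 and 187 CPM. KO libraries were above all WT libraries at days 22 and 26, and the groups overlapped at days 20 and 24. The mean difference was 0.21 ± 0.06 on the log2 scale (SE, 95% interval 0.08 to 0.35, edgeR quasi-likelihood test, adjusted p = 0.0400).

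The other MCM2-7 genes were not called. Mcm2, Mcm3, Mcm4 and Mcm5 had mean differences of -0.13, -0.12, -0.11 and -0.09 on the log2 scale, with adjusted p-values of 0.235 to 0.531 by the edgeR quasi-likelihood test, and Mcm4 was at -0.07 without KO day 26 replicate 2. Mcm5 was at -0.06 without WT day 20 replicate 1, and also without WT day 26 replicate 1. Summed over the 6 genes, the level was 406 ± 31 CPM (SD, n = 4) in WT and 407 ± 23 CPM (SD, n = 4) in KO at day 20. At day 22 it was 374 ± 18 CPM (SD, n = 4) in WT and 399.7 ± 24 CPM (SD, n = 4) in KO, and at day 24 it was 369.6 ± 31 CPM (SD, n = 2) in WT and 333 ± 7 CPM (SD, n = 2) in KO. At day 26 it was 311 ± 7 CPM (SD, n = 2) in WT and 337 ± 16 CPM (SD, n = 2) in KO. The KO mean was thus the lower at day 24 and the higher at days 22 and 26, and Mcm7 makes the largest part of the sum. With a block for the replicate number in the fit, 0 members were called in the mean of the days, beside 7.56% of all genes. The calls of Mcm6 and Mcm7 were not firm: leaving out 1 of the 24 libraries in turn kept Mcm6 past the threshold in 14 fits (adjusted p from 0.0196 to 0.119) and Mcm7 in 12 fits (0.0169 to 0.0943). Without any 1 of the libraries of days 24 and 26, no member was called, and with no filter on low counts Mcm6 was at -0.22 with an adjusted p of 0.0600.

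**Figure D2:**
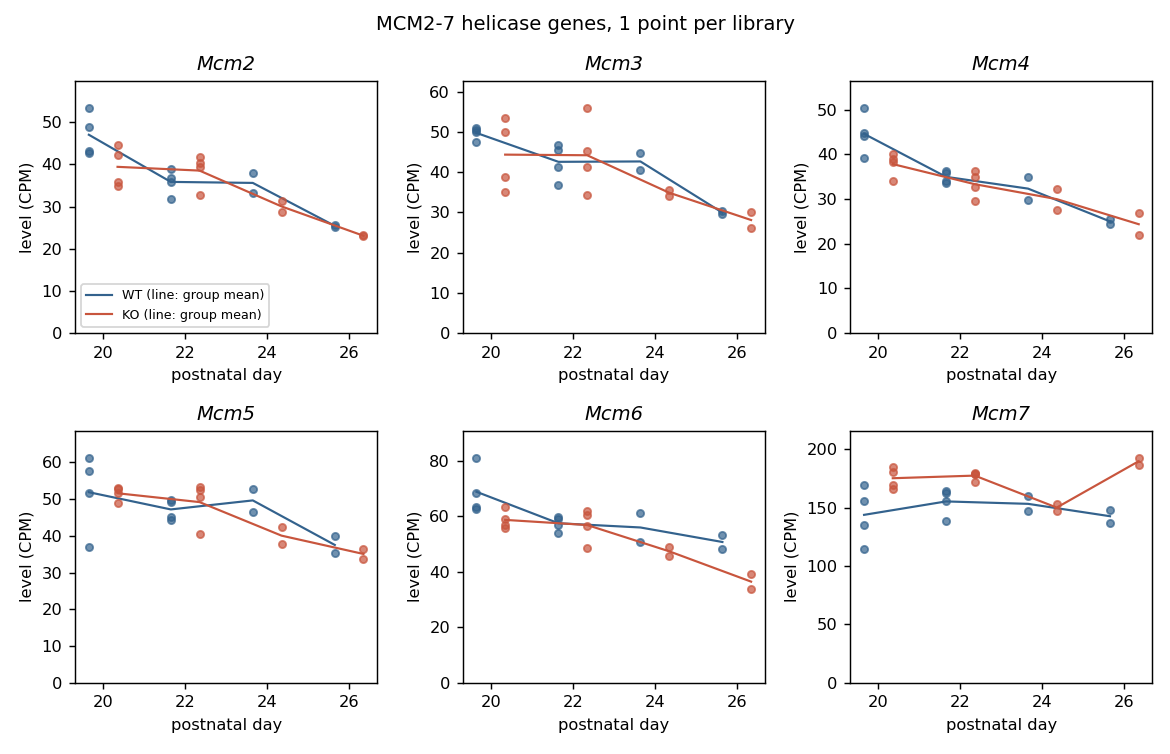
Level of the 6 MCM2-7 helicase genes in CPM against postnatal day, 1 point per library and a line through the group means, for WT (blue) and KO (red). The axes start at 0. Mcm6 lay lower in both KO libraries than in both WT libraries of days 24 and 26, Mcm7 lay higher in KO at day 26, and the other 5 genes besides Mcm7 fell from day 20 to day 26 in both genotypes.

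Among the remaining members, those with the lowest unadjusted p were Rfc2, Ccne1, Cdt1, Pole, Tyms, Pola1, Rrm1 and Mcm2, and none passed the threshold by the adjusted p. Cdt1, the loading factor that geminin inhibits, had the lowest value of all members at -0.34 ± 0.14 on the log2 scale (SE, edgeR quasi-likelihood test, adjusted p = 0.128). It was at 10.1 and 6.59 CPM in WT and 4.21 and 4.84 CPM in KO at day 24, and at 7.01 and 5.81 against 4.75 and 4.07 CPM at day 26. The groups did not overlap at these days but did at days 20 and 22, when the KO means of 7.95 and 7.66 CPM stood beside WT means of 7.38 and 7.86 CPM. Rfc2, a clamp loader subunit, was at 107 and 107 CPM in WT and 138 and 143 CPM in KO at day 26. Its mean difference was 0.20 ± 0.07 on the log2 scale (SE, adjusted p = 0.112). Ccne1, which encodes cyclin E1, was at 7.26 and 7.47 CPM in WT and 9.74 and 9.02 CPM in KO at day 24, and at 7.59 and 8.25 against 9.98 and 9.98 CPM at day 26. Its groups did not overlap at these days, and the mean difference was 0.19 ± 0.08 (SE, adjusted p = 0.126). Ccne2, its paralog, was at -0.06 on the same scale, and at 0.05 without WT day 20 replicate 2.

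Pole, the catalytic subunit of polymerase ε, had KO means on either side of the WT means, depending on the day. At day 20 it was at 144, 118, 133 and 144 CPM in WT and at 110, 122, 118 and 112 CPM in KO. At day 22 it was at 93.0, 101, 96.4 and 90.9 CPM in WT and at 96.6, 108, 119 and 133 CPM in KO. At day 24 it was at 101 and 79.1 against 103 and 106 CPM, and at day 26 at 77.9 and 79.9 against 97.7 and 98.7 CPM. The KO mean was the lower at day 20 and the higher at the other 3 days, with groups that overlapped at days 20 and 22 and did not at days 24 and 26. Its mean difference of 0.14 ± 0.06 on the log2 scale had an adjusted p of 0.167, and the test of a KO effect that differs between days gave an unadjusted p of 0.00871 and an adjusted p of 0.373 by the edgeR quasi-likelihood test. In DESeq2 the latter was 0.0378.

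Pola1, the catalytic subunit of polymerase α, had a mean difference of -0.27 ± 0.13 on the log2 scale (SE, adjusted p = 0.209). It moved to -0.18 without WT day 20 replicate 2. Tyms, thymidylate synthase, was at -0.25 ± 0.12 (SE, adjusted p = 0.202), with 6.26 and 6.17 CPM in WT and 4.41 and 4.65 CPM in KO at day 26. Rrm1, the large subunit of ribonucleotide reductase, was at -0.19 ± 0.09 (SE, adjusted p = 0.218), and at -0.13 without WT day 20 replicate 2. In day 22 libraries Rrm1 was at 244, 240, 225 and 241 CPM in WT and at 190, 197, 196 and 196 CPM in KO. At day 24 it was at 234 and 216 against 184 and 207 CPM, and at day 26 at 227 and 235 against 201 and 209 CPM. The groups did not overlap at these 3 days and did at day 20. All 4 members of nucleotide supply had negative values, from -0.25 for Tyms to -0.07 for Tk1, and none was called. Tk1 was at 0.02 without WT day 22 replicate 1, which turns its sign, and Rrm2 went from -0.10 to -0.04 without KO day 26 replicate 2.

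**Figure D3:**
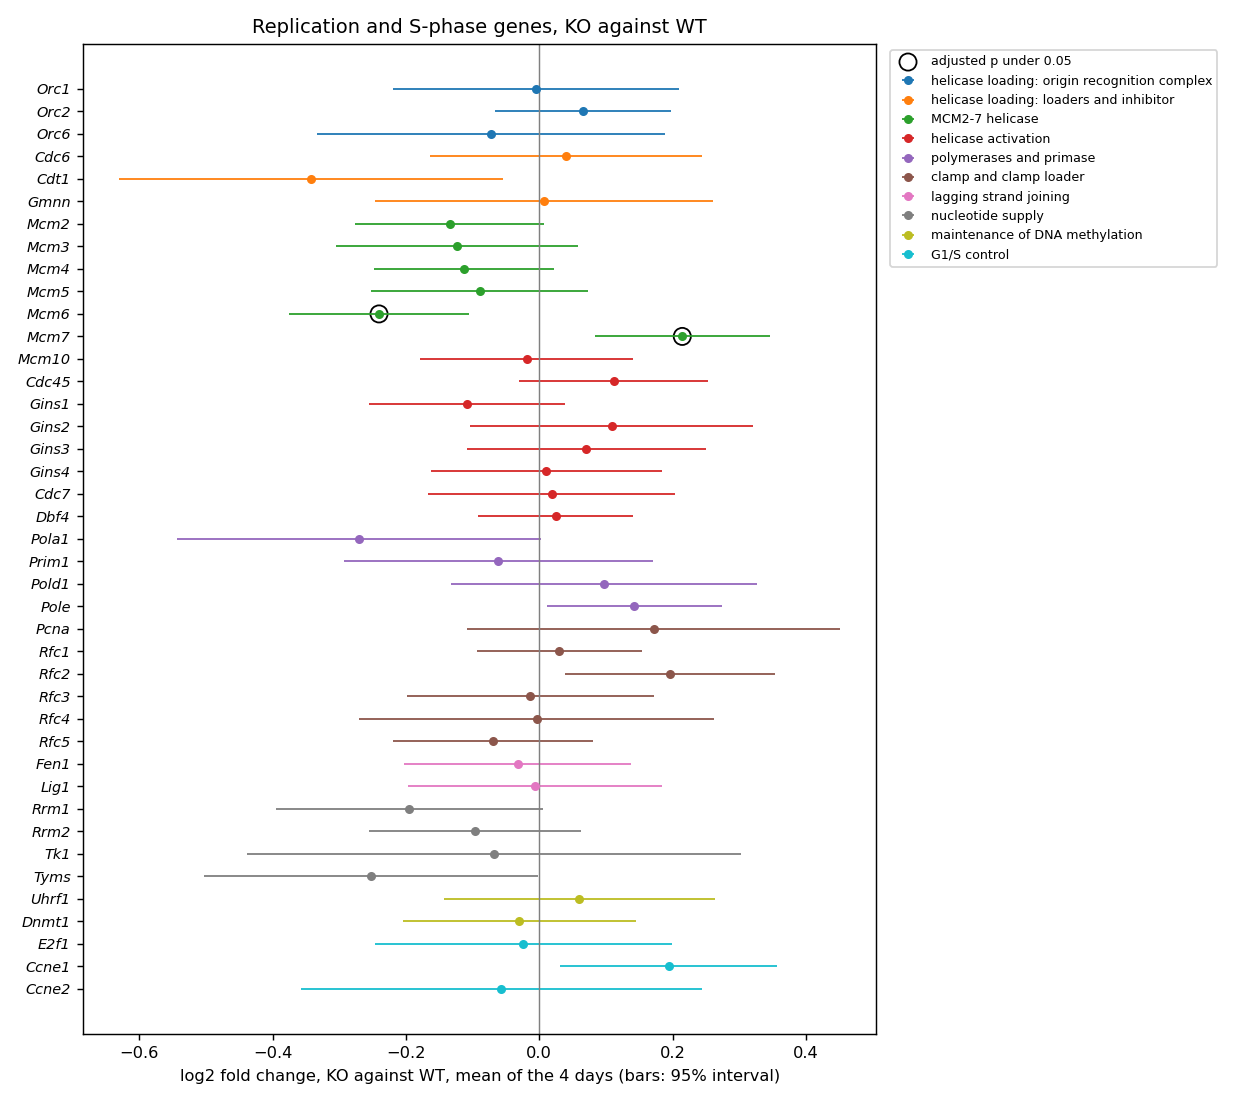
Difference between KO and WT of each member on the log2 scale, averaged over the 4 days, with 95% intervals and colours by role. Only Mcm6 (-0.24) and Mcm7 (0.21) are circled as past the adjusted p threshold of 0.05, and 38 of 41 intervals lie within 0.5 of 0.

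None of the members not described so far was called in the mean of the days. Orc1, Orc2 and Orc6 lay between -0.07 and 0.07 on the log2 scale, and Cdc6 and Gmnn at 0.04 and 0.01. The 8 genes of helicase activation lay between -0.11 for Gins1 and 0.11 for Cdc45. Prim1 was at -0.06, Pold1 at 0.10, Fen1 at -0.03, Lig1 at -0.01, Uhrf1 at 0.06 and Dnmt1 at -0.03. These values moved with single libraries. Without WT day 20 replicate 2, Pold1 was at 0.06, Uhrf1 at 0.02, Dnmt1 at -0.06, Lig1 at -0.04, Cdc6 at 0.09 and Gmnn at 0.09, and Prim1 and Orc6 changed sign. Pcna was at 0.17 ± 0.13 (SE), or 0.27 without WT day 20 replicate 2, and the clamp loader genes other than Rfc2 lay between -0.07 and 0.03, or between -0.08 and 0.10 without that library.

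How large an effect could be seen is given by the intervals. For the mean of the days, 38 of the 41 intervals of 95% lay within 0.5 of 0 on the log2 scale, and their median half-width was 0.18. At single days they were wider, with median half-widths of 0.30 at day 20, 0.29 at day 22 and 0.42 at days 24 and 26.

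At single days no member was called by the edgeR quasi-likelihood test or by DESeq2. Of all genes, 3.34%, 2.51%, 0.0874% and 0.0466% were called at days 20, 22, 24 and 26. An unadjusted p under 0.05 was found at day 20 for 5 members (12.2%), Mcm2, Mcm4, Mcm6, Mcm7 and Pole, beside 12.5% of all genes. At day 22 it was found for Pole (2.44%, beside 14.6% of all genes) and at day 24 for Cdt1 (2.44%, beside 5.23%). At day 26 it was found for 4 members (9.76%), Mcm6, Mcm7, Pole and Rfc2, beside 11.5% of all genes. The test for a KO effect that differs between days called no member and 0.00582% of all genes. In that test 1 member had an unadjusted p under 0.05, beside 9.06% of all genes. DESeq2 called 1 member in it, Pole, and 272 genes in all. When day 26 was fitted alone, 5 members were called, Mcm6 lower and Mcm7, Pcna, Pole and Rfc2 higher, beside 12.8% of all genes tested.

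The libraries of the genotypes overlapped for all 41 members at day 20, where 4.71% of all genes did not overlap. At day 22 KO lay above all WT libraries for Orc2 and Mcm7 and below them for Rrm1, beside 8.09% of all genes. At day 24, 7 members were above and 11 below, and at day 26, 12 were above and 12 below, where 44.0% and 59.0% of all genes did not overlap with 2 libraries against 2. Pold1 lay below WT at day 24 and above it at day 26.

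Cell type markers moved between the genotypes too. In the mean of the days, 6 of 10 round spermatid markers and 9 of 10 elongating spermatid markers were higher in KO. Over all genes 7.08% were called in that comparison, higher or lower. The summed level of the round spermatid list had means of 51.9 CPM in WT and 111 CPM in KO at day 20, 177 and 311 CPM at day 22, 520 and 511 CPM at day 24, and 880 and 955 CPM at day 26. That of the elongating spermatid list had means of 369 and 494 CPM at day 20, 704 and 1042 CPM at day 22, 1532 and 2216 CPM at day 24, and 4058 and 5048 CPM at day 26. At days 20 and 22 the libraries of the genotypes overlapped in both sums. At day 22 the round sums ran from 138 to 208 CPM in WT and from 175 to 529 CPM in KO. The elongating sums ran from 532 to 804 and from 660 to 1699 CPM. With 2 libraries against 2, the elongating sums did not overlap at days 24 and 26. The round sums overlapped at day 24 and not at day 26. By single days, 9 round and 4 elongating markers were called at day 20, 4 elongating markers at day 22 and none of either list at days 24 and 26. Over all genes 3.34%, 2.51%, 0.0874% and 0.0466% were called at these 4 days. Of 10 pachytene markers all had a positive mean difference and none was called, with 4 at an unadjusted p under 0.05. No marker of spermatogonia (10) or of preleptotene to zygotene cells (9 measured) was called. Their medians were -0.04 and -0.07 on the log2 scale. Of 5 peritubular and 5 endothelial markers, 2 each were lower in KO, and of 6 Leydig cell markers 1 was higher, with a median of 0.33. The part of these shifts in the values of the members was not tested.

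More members were called with age than between genotypes. In WT testes, 13 of 41 members changed from day 20 to day 26, 11 of them lower and 2 higher. Over all genes 42.5% were called, 18.1% lower and 24.4% higher. Their median was -0.36 on the log2 scale, beside -0.04 for all genes tested. The genes that fell were Orc1 of the origin complex, 5 of the 6 MCM2-7 genes, Mcm10 and Gins3 of helicase activation, Pola1 and Pole of the polymerases, and Tyms. The genes that rose, Rfc1 and Rfc2, both encode clamp loader subunits.

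Pola1 had the lowest value in WT when all libraries were used, from 27.0, 62.8, 27.9 and 33.0 CPM at day 20 to 18.9 and 20.9 CPM at day 26. Its day 26 libraries lay below all day 20 libraries, of which replicate 2 was far above the others. The change was -0.92 ± 0.27 on the log2 scale (SE, edgeR quasi-likelihood test, adjusted p = 0.00888), and without that library it was -0.60 with an adjusted p of 0.0080, when Mcm2 was lowest at -0.97 and Pole and Mcm4 followed at -0.87 and -0.81. Mcm2 went from 42.7, 43.2, 48.8 and 53.3 CPM to 25.7 and 25.1 CPM, without overlap. That was a change of -0.89 ± 0.14 (SE, adjusted p = 2.54e-05).

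Mcm4 fell from 44.0, 50.3, 39.2 and 44.7 CPM to 25.5 and 24.5 CPM, or by 0.83 ± 0.13 on the log2 scale (SE, adjusted p = 2.75e-05). Orc1, the largest subunit of the origin recognition complex, fell from 22.5, 34.1, 20.0 and 23.7 CPM to 12.9 and 15.6 CPM, or by 0.81 ± 0.21 (SE, adjusted p = 0.00354). Pole fell from 144, 118, 133 and 144 CPM to 77.9 and 79.9 CPM, or by 0.77 ± 0.13 (SE, adjusted p = 5.34e-05). For each of these genes the groups did not overlap. The other members that fell were Tyms (-0.76), Mcm3 (-0.73), Mcm10 (-0.66), Gins3 (-0.51), Mcm5 (-0.47) and Mcm6 (-0.44).

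Mcm7 was the 1 gene of MCM2-7 that was not called. Its change in WT was -0.01 ± 0.12 on the log2 scale (SE, adjusted p = 0.949), with means of 144 CPM at day 20 and 143 CPM at day 26. Rfc2 rose from 93.8, 76.9, 60.0 and 72.4 CPM to 107 and 107 CPM, a change of 0.50 ± 0.15 (SE, adjusted p = 0.0093), without overlap. Rfc1, the large clamp loader subunit, went from 185, 178, 129 and 168 CPM to 195 and 211 CPM, or 0.30 ± 0.12 (SE, adjusted p = 0.0411). It passed the threshold in 10 of 24 fits that left out 1 library. Rfc3, Rfc4 and Rfc5 were not called, at -0.17, -0.18 and -0.18. Pcna had -0.51 ± 0.27 (SE, adjusted p = 0.135), with day 20 values of 116, 285, 131 and 148 CPM and day 26 values of 123 and 116 CPM. Without WT day 20 replicate 2, Pcna was at -0.19, Rfc3 at -0.06, Rfc4 at 0.18 and Rfc5 at -0.30, so that Rfc4 changed sign. Rfc1 was at 0.17 without WT day 20 replicate 3.

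**Figure D4:**
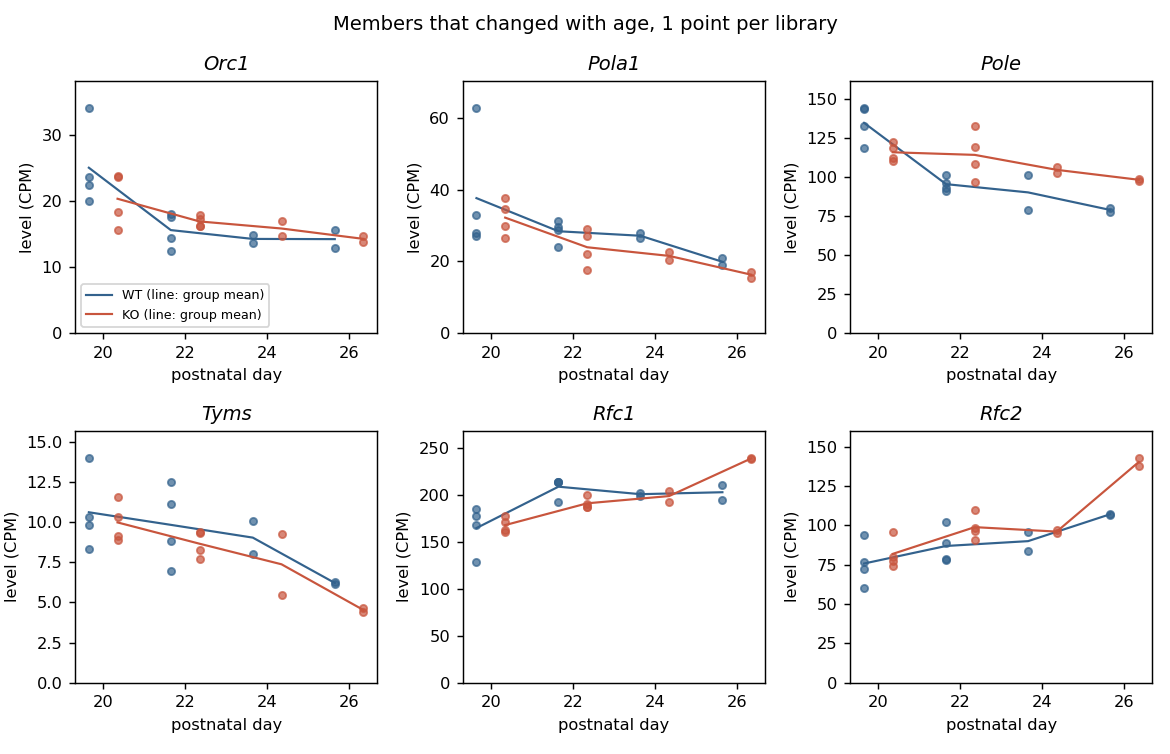
Level of 6 members in CPM against postnatal day, 1 point per library and a line through the group means, for WT (blue) and KO (red). The axes start at 0. Orc1, Pola1, Pole and Tyms were lower at day 26 than at day 20 in WT, Rfc1 and Rfc2 were higher, and the single high Pola1 point of WT day 20 is 62.8 CPM.

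The other members not called in WT ranged from -0.83 for Tk1 to 0.34 for Uhrf1. Gmnn, Orc6, Ccne2, Prim1, Pold1 and E2f1 were at -0.59, -0.61, -0.54, -0.53, -0.53 and -0.51 on the log2 scale, and Fen1 and Lig1 both at -0.36. Without WT day 20 replicate 2 the values of Gmnn, Orc6, Ccne2 and Prim1 were -0.32, -0.36, -0.16 and -0.33, that of Lig1 was -0.57 and that of Uhrf1 was 0.12. In that fit Lig1, Pold1 (-0.77), E2f1 (-0.68), Dnmt1 (-0.43) and Rrm1 (0.31) passed the threshold as well, beside 46.4% of all genes. Cdt1, at -0.22, was at -0.40 without that library and at 0.14 without WT day 20 replicate 3. Of all 41 members, 22 had an unadjusted p under 0.05 (53.7%, beside 49.9% of all genes), and 34 had a negative value, beside 9009 of the 17170 genes.

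Part of the change in WT was already there at day 22. Against day 20, 6 members were called at day 22 (Orc1, Mcm2, Mcm4, Mcm10 and Pole lower, Rfc1 higher), beside 20.0% of all genes. At day 24 the first 5 of these were called lower again, beside 28.3% of all genes. Orc1 had the lowest value at both days, -0.68 and -0.81 on the log2 scale. A test of any change across the 4 days in WT called 9 members and 35.4% of all genes.

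In KO testes, 18 members changed from day 20 to day 26, 14 lower and 4 higher, beside 52.2% of all genes, 24.9% lower and 27.2% higher. Tyms had the lowest value, from 9.14, 8.89, 10.3 and 11.6 CPM to 4.41 and 4.65 CPM, or -1.14 ± 0.25 on the log2 scale (SE, edgeR quasi-likelihood test, adjusted p = 0.000801). Its day 26 libraries were the lowest of all and did not overlap with day 20. Pola1 (-0.98), Cdt1 (-0.85), Mcm2 (-0.77), Prim1 (-0.72), Orc6 (-0.69) and Mcm6 (-0.69) followed. Rfc2 (0.78), Uhrf1 (0.59), Rfc1 (0.51) and Dbf4 (0.29) were higher at day 26. Mcm7 was at 0.12 ± 0.12 (SE, adjusted p = 0.446).

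Of the members called lower, 9 were shared by the genotypes (Mcm2, Mcm3, Mcm4, Mcm5, Mcm6, Mcm10, Orc1, Pola1 and Tyms), which is 81.8% of the 11 in WT and 64.3% of the 14 in KO. Over all genes 18.1% were lower in WT and 24.9% in KO. The overlap over all genes was not computed, so whether these shares are particular to the members is not known. Gins3 and Pole were called in WT and not in KO, and Cdc7, Cdt1, E2f1, Orc6 and Prim1 in KO and not in WT. E2f1 changed by -0.51 in WT and -0.54 in KO. Without WT day 20 replicate 2 it was called in WT too (-0.68, edgeR quasi-likelihood test, adjusted p = 0.0090). Cdc7, Cdt1, Orc6 and Prim1 were not. The difference between the genotypes was tested directly. The test of the change from day 20 to day 26, KO minus WT, called no member and 0.0% of all genes by the edgeR quasi-likelihood test, and no member by DESeq2. In that test 3 members had an unadjusted p under 0.05 (7.32%, beside 10.8% of all genes), Pole (0.53 on the log2 scale), Gins4 (0.51) and Rrm2 (-0.46).

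**Figure D5:**
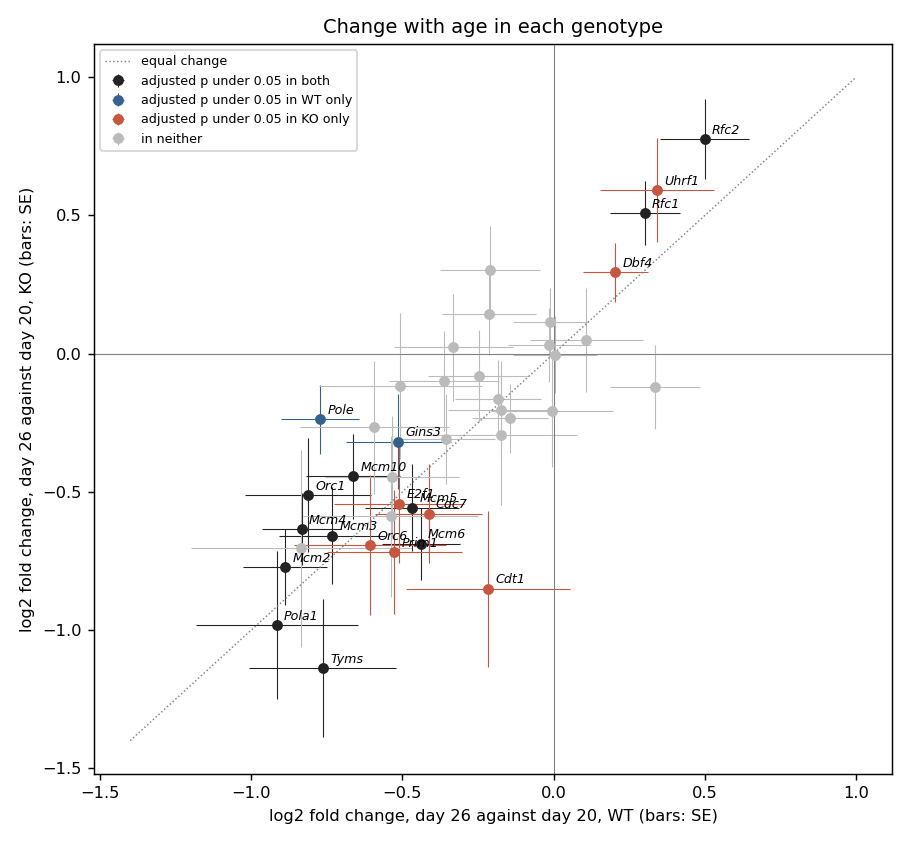
Change of each member from day 20 to day 26 on the log2 scale in WT (horizontal) and KO (vertical), with SE bars and colours by the genotypes in which the adjusted p was under 0.05. Tyms, Pola1 and Mcm2 lie at the lower left and Rfc2 at the upper right, and the dotted line marks equal change.

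In KO, day 22 and day 24 called no member against day 20, beside 10.6% and 15.1% of all genes. DESeq2 called 0 and 2 members, of 2584 and 2904 genes called in all. An unadjusted p under 0.05 was found for 2 and 9 members (4.88% and 22.0%), beside 28.6% and 29.2% of all genes. The test of any change across days in KO called 11 members and 40.1% of all genes. These counts moved with single libraries. Without WT day 20 replicate 2, whose spread enters every fit, 18 members were called in WT and 21 in KO at day 26 against day 20 (46.4% and 59.1% of all genes), and 9 in KO at day 24 (26.1% of all genes). Without WT day 20 replicate 1 there were 20 in WT at day 26, beside 44.5% of all genes. Without WT day 26 replicate 1 or 2 there were 7 and 8, beside 30.1% and 27.0% of all genes, and without KO day 26 replicate 2 there were 7 in KO, beside 33.4%.

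The fall of these members came beside a change in the markers of cell types. In WT from day 20 to day 26, 6 of 10 spermatogonia markers were lower and 1, Dmrtb1, was higher, with a median of -0.70 on the log2 scale. The summed level of that list rose, from a mean of 442 to 636 CPM, because Dmrtb1 alone went from 146 to 434 CPM. Of the 9 measured markers of preleptotene to zygotene cells, 5 were lower and Rec8 higher, and the summed level went from a mean of 1713 CPM (1355 to 2569) at day 20 to 1206 CPM (1146 to 1267) at day 26. All 10 round and all 10 elongating spermatid markers were higher, and 7 of 10 Sertoli cell markers were lower. The part of these shifts in the fall of the members was not tested.

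Of the 14 members with E2F-type letters in their window, 6 were lower in WT at day 26 than at day 20, with a median of -0.40 on the log2 scale. Of the 19 members whose window lacked them, 3 were lower and 1 was higher, with a median of -0.36, and of the 8 without a window 2 were lower and 1 was higher, with a median of -0.37. Over all genes 18.1% were lower and 24.4% higher. Between KO and WT, 2 of the 14 were called in the mean of the days, Mcm6 lower and Mcm7 higher, and none of the 19 or of the 8, beside 7.08% of all genes.

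Other genes of the pathway were read from lists set beside the members. Of 37 other replication factors, none was called between KO and WT in the mean of the days (1 had an unadjusted p under 0.05), and of 19 further genes of nucleotide supply none was called either (1 with an unadjusted p under 0.05). Between KO and WT 7.08% of all genes were called. In WT from day 20 to day 26, 13 of the 37 replication factors were lower and 4 higher, with a median of -0.34 on the log2 scale, beside -0.36 for the members. Over all genes 18.1% were lower and 24.4% higher in this comparison. The genes named next were chosen after their values were seen. Atad5, which unloads the clamp, was at -1.14, and Clspn, a checkpoint mediator at the fork, at -0.73. Rnaseh2a, a subunit of ribonuclease H2, was at 1.14, and Rpa1, of the single-strand binding protein, at 0.82. Of the 19 nucleotide supply genes, 8 were lower and 1 was higher.

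Of 29 further genes of E2F and G1/S control, 4 were called between KO and WT in the mean of the days, beside 7.08% of all genes. E2f2, an activating E2F factor, was at -0.90 ± 0.19 on the log2 scale (SE, edgeR quasi-likelihood test, adjusted p = 0.0088). It was at 8.94 and 8.76 CPM in WT and 3.66 and 3.99 CPM in KO at day 24, and at 9.21 and 9.83 against 2.96 and 2.35 CPM at day 26, while the groups overlapped at days 20 and 22. Ccnd1, cyclin D1, was at -0.42 ± 0.09 (adjusted p = 0.0122), and E2f6, a repressive E2F factor, at -0.34 ± 0.09 (adjusted p = 0.0254). Skp2, which targets the inhibitor p27 for degradation, was at 0.29 ± 0.07 (adjusted p = 0.0226). E2f1, the member of the same family, was at -0.02 ± 0.11 (adjusted p = 0.930), and the groups overlapped at each day. When 1 library was left out in turn, E2f2 kept its call in 24 of 24 fits, Ccnd1 and Skp2 in 22 each, and E2f6 in 18.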

How the data were processed

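Total RNA from testes was sequenced by the authors on stranded, ribosomal RNA-depleted libraries (paired-end, NextSeq 500), aligned to mm10 with STAR (2.7.11b) and counted per gene with HTSeq in reverse-stranded mode. The deposited files hold whole-number counts per gene, 1 file per library. Rows that name no gene (no feature, 45.1% to 58.5%, and reads aligned at several sites, among others) were kept out of library sizes. The extraction text of the labels also speaks of purified spermatogenic cells, while titles, sources and methods name testis. The study's methods state fewer samples per genotype at day 20 than the labels, and all labelled libraries were used.

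From these counts, genes were filtered with filterByExpr (minimum count 10), scaled by TMM and fitted with the edgeR (4.0.16, R 4.3.3) quasi-likelihood test over all 24 libraries in 8 groups, two-sided, with Benjamini-Hochberg adjustment over 17170 genes and a threshold of 0.05. The mean of the 4 days weights each day equally. DESeq2 (1.42.0), RLE scaling, no filter, a fit of the compared groups alone, a replicate block and each library left out were the alternatives. No replicates were within sampling noise of each other (lowest chi-square per degree of freedom 5.07). The script was tested on simulated counts. Full statistics were given for members called between KO and WT, then by unadjusted p up to 10, and for the members with the largest called changes in WT at day 26, 5 in each direction. The members and the lists were chosen with earlier results of these data known. The gene model version is not given in the sources used here; gene positions and lengths are of GENCODE M21.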

Additional observations from a re-analysis of the deposited data

Results flagged for a closer look

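Among the members with full statistics and Atad2, the groups of 4 libraries were searched for a library far from the other 3. Such a search flags about 1 in 20 groups by chance. Pola1 in WT day 20 was at 62.8 CPM in replicate 2, far above 27.0, 27.9 and 33.0 CPM, with a gap that makes 0.832 of the group's range. This is the library with the highest share of mitochondrial ribosomal RNA (3.26%). Rfc1 in WT day 22 was at 193 CPM in replicate 3, below 214, 215 and 215 CPM, with a gap of 0.983 of the range.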

How the results depend on the processing

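In the counts of members called, 60 of 73 values under another tool, scaling, filter, block or sample set stayed within 1.5 times the reported count, and none of the named differences changed sign. Many of the 60 were 0 beside a reported 0, and for the mean KO difference 2 of 4 values moved. With only the compared groups in the fit, 5 members were called between KO and WT at day 26 (0 as reported), and with age 1 in WT at day 22, 0 at day 24, 4 at day 26, 5 across days and 3 in KO at day 24. Over all genes these fits called 12.8% between KO and WT at day 26, 9.06%, 10.7% and 20.2% in WT at days 22, 24 and 26, and 16.6% in KO at day 24. Between KO and WT in the mean of the days, 1 member was called with no filter and 0 with the replicate block, beside 4.27% and 7.56% of the genes tested. Whether replicate numbers pair the samples was not settled. The r of same-numbered pairs ran from -0.459 to 0.416 (7 of 12 above 0.1), positive at days 20, 24 and 26 and negative at day 22. At days 24 and 26, with 2 libraries per genotype, the 2 same-numbered pairs share 1 value. With the replicate block 9 were called in WT at day 24 (33.0% of all genes), 15 across days and 3 in KO at day 24 (18.4%). DESeq2 called 1 member, Pole, for a KO effect that differs between days (272 genes in all) and 2 in KO at day 24 (2904 genes in all). The causes were not tested.

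Leaving out 1 library at a time gave 0 to 3 members for the mean KO difference, 3 to 9 for WT at day 22, 0 to 8 at day 24, 7 to 20 at day 26 and 5 to 15 across days, and in KO 0 to 2, 0 to 9, 7 to 21 and 3 to 17. For the mean KO difference the count was 0 without any 1 library of days 24 and 26, and 1 without KO day 20 replicate 1 or 4, KO day 22 replicate 2 or WT day 22 replicate 2, 3 or 4. In WT it was 3 at day 22 without WT day 20 replicate 4 or WT day 22 replicate 1. At WT day 24 it was 8 without WT day 20 replicate 1 or 2, 3 without WT day 20 replicate 4 or WT day 24 replicate 1, and 0 without WT day 24 replicate 2. Across days it was 15 in WT without WT day 20 replicate 2 and 5 without WT day 26 replicate 2, and in KO 17 without WT day 20 replicate 2 and 6 and 3 without KO day 26 replicate 1 and 2. In KO at day 24 it was 3 without WT day 20 replicate 3 and 1 without KO day 20 replicate 1 or KO day 22 replicate 2, and at day 22 it was 2 without WT day 20 replicate 2. RLE scaling moved the median of the members in KO at day 26 from -0.27 to -0.18, and that of all genes from -0.07 to 0.02. In the fits without 1 library of day 20 or 22, 3.96% to 10.1% of all genes were called for the mean KO difference. The share was 12.8% to 21.9% in WT at day 22, 26.6% to 32.1% at day 24 and 41.6% to 46.4% at day 26. In KO it was 0.0233% to 21.5%, 10.8% to 26.1% and 47.8% to 59.1%. Across days it was 32.7% to 40.5% in WT and 32.7% to 51.5% in KO. Leaving out a library of day 24 or 26 left 1 in its group. Days 24 and 26 have 2 libraries per genotype, so differences there are less precise than at days 20 and 22.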
